A study of Mus musculus with 35 samples.

Results

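Mouse cells infected with the factor combination labelled OA were compared with cells infected with the combination labelled ODR at day 6 of reprogramming, both without BMP4. Members were chosen by column label, which gave 6 of the 35 libraries of the series, 3 OA and 3 ODR. Of 21350 genes, the 12441 that reached 10 in 2 or more of these 6 columns were tested. A gene can pass this filter through a single group, which among low genes favours a difference towards that group. OA and ODR are given as the labels write them, and the labels do not expand the names, state the starting cells or say whether replicates came from separate cultures. All cultures were infected and then grown in the reprogramming medium iCD1. Where used elsewhere in the series, the growth factor BMP4 was added at 10 ng/ml from the change to that medium. A further combination, OB, with 4 libraries at day 6 without BMP4, served as a second comparator, and the OA and ODR libraries of days 1 and 14 served as separate material. The values are normalized whole-number scores per gene, in which every column has nearly the same distribution and a common ceiling of 18690.

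KDM2A and its paralog KDM2B are JmjC-domain demethylases of histone H3 lysine 36 that bind unmethylated CG dinucleotides through a CXXC zinc finger. KDM2B recruits the variant Polycomb complex PRC1.1, which ubiquitinates histone H2A at CG-rich promoters of silent developmental genes. Hox clusters and neural regulators are textbook Polycomb targets. In reprogramming, Oct4, encoded by Pou5f1, is a core factor, and the loss of fibroblast genes and the gain of epithelial and pluripotency genes are its usual landmarks.

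The promoters of 4 genes on which the results turn are shown because 3 of them, Hoxd8, Gng3 and Cubn, differed between OA and ODR at day 1 as well as at day 6, while Hoxd13, a neighbour of Hoxd8 in the HoxD cluster, was called at day 6 and not at day 1. The sequences are from RefSeq on GRCm38.p6, run 5′ to 3′ along the gene's strand from 250 bases before to 50 bases after the start, and carry every CG in capitals.
Hoxd8, chr2:74704365-74704664, plus strand: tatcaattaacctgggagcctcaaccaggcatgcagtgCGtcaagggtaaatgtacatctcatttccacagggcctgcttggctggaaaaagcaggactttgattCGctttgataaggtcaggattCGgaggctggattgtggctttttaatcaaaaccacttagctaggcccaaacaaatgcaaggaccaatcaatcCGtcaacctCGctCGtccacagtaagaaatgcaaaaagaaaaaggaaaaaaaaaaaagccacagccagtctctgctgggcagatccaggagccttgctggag
Hoxd13, chr2:74667975-74668274, plus strand: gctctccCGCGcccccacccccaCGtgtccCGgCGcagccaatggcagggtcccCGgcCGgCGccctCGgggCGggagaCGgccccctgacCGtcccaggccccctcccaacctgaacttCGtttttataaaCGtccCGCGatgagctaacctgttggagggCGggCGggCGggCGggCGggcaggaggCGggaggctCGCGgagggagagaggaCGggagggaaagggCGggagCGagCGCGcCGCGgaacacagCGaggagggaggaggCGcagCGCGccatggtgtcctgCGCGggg
Gng3, chr19:8839197-8839496, minus strand: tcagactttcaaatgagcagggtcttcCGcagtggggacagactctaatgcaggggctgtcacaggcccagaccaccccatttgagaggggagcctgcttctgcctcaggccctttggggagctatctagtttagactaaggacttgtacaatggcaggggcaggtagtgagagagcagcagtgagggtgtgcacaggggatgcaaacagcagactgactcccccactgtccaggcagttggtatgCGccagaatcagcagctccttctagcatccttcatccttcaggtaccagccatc
Cubn, chr2:13491827-13492126, minus strand: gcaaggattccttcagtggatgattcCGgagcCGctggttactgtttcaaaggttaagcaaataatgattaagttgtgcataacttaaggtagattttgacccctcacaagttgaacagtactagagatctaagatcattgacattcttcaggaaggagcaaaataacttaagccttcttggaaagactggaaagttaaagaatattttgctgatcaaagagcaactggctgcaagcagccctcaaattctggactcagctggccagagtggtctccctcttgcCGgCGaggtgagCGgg
The letters CG, which read the same on both strands, occur 6 times in the Hoxd8 promoter, 2 times in that of Gng3 and 5 times in that of Cubn. The Hoxd13 promoter holds 37. Of 12844 promoters of tested genes, 99.2% hold at least 1 CG, 87.4% hold at least as many as Hoxd8, 97.5% at least as many as Gng3, 90.0% at least as many as Cubn and 10.8% at least as many as Hoxd13. These counts describe the letters of 1 window per gene.

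The ODR column labelled replicate 3 at day 6 held the same value at every gene as a column labelled ODR with BMP4. BMP target genes in it were at the level of the ODR libraries without BMP4. Id1, a target of BMP signalling, was 37 in the identical column, against 39 and 50 in the other ODR libraries without BMP4 and 1046 in the remaining ODR library with BMP4. Smad6, an inhibitor induced by BMP, was 0 in the identical column and in both other ODR libraries without BMP4, and 662 with BMP4. Across 12441 genes the identical column correlated at 0.966 and 0.955 with the ODR libraries without BMP4 and at 0.884 with the one given BMP4, a description over genes that share normalization. Because it carries 2 labels, it was left out of the test, and results are given with and without it. The library labelled OA day 14 replicate 2 had 721 for Kdm2a, against 18690 in the other OA libraries of day 14, and was also left out. Of the marker genes of fibroblasts, Vim was at the ceiling in all 6 columns and Thy1 lay at 1046, 1140 and 1062 in OA libraries and at 1350 and 1242 in ODR libraries. In these bulk libraries, fewer cells of a type and less RNA per cell cannot be told apart.

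At day 6, 648 of 12441 genes (5.21%) differed between OA and ODR cells by limma with a Benjamini-Hochberg adjusted p below 0.05. Of these, 371 (2.98%) were higher in OA and 277 (2.23%) were lower. At least 2-fold differences were found for 200 of the higher genes (1.61%) and 124 of the lower genes (0.997%), and at least 4-fold differences for 66 and 20. The median difference over all genes tested was -0.01 on the log2 scale. The 3 OA libraries did not overlap the 2 ODR libraries at any of the 371 genes called higher or at 276 of the 277 called lower, while 16.5% of all tested genes lay wholly above and 17.8% wholly below. The identical column counted in the filter on low values but not in the fit. It lay on the ODR side of the OA mean for 367 of the 371 higher genes and 274 of the 277 lower genes. These genes were chosen by the values of the same OA libraries, so that side was largely set by the choice. The share over all tested genes was not computed for this column. With that column kept as an added ODR library, 1089 genes were called, 604 higher and 485 lower, and 620 of the 648 were among them. List counts given below with that column kept belong beside these totals and not beside 2.98% and 2.23%.

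**Figure D1:**
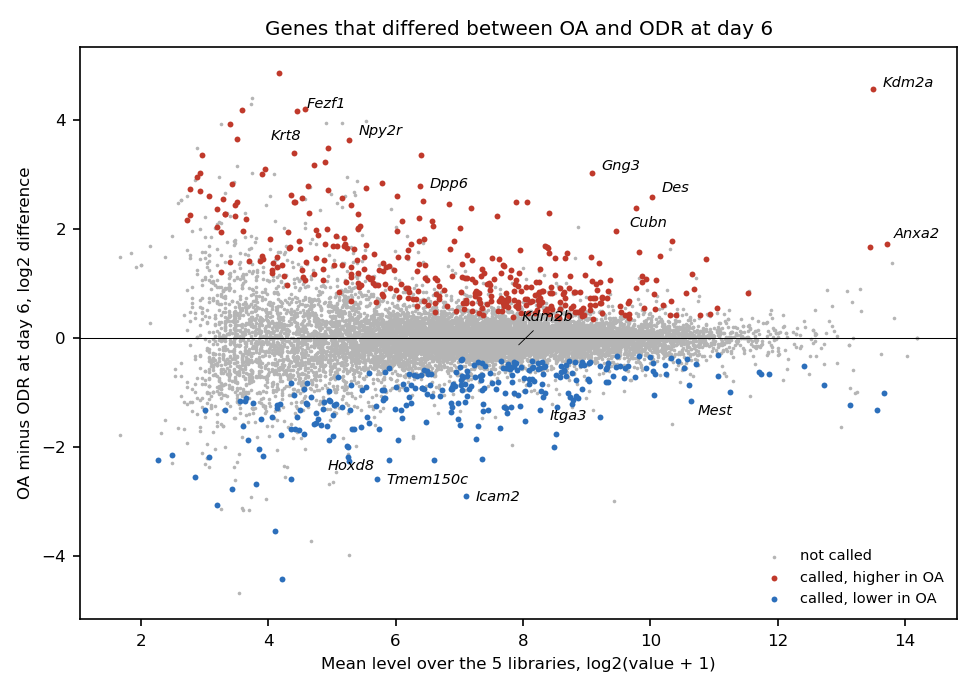
Mean level over the 5 libraries (horizontal axis, log2 of value + 1) against the difference of OA minus ODR at day 6 (vertical axis, log2) for 12441 genes; red and blue points are the 371 genes called higher and the 277 called lower in OA. Kdm2a stands alone at high level with a difference of 4.57, and Kdm2b lies near 0 at -0.18.

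The number of calls rested on single libraries and on the libraries that entered the fit. Without ODR replicate 2 it was 184, without ODR replicate 1 it was 310, without OA replicate 1 it was 429, and with only the 5 libraries in the fit it was 173. Of 63 named genes called, 14 kept the call under each of the 18 alternatives that was run for them: Kdm2a, Dpp6, Gng3, Hoxd8, L1td1, Rtl1, Des, Tekt2, Tfcp2l1, Sncg, Tmem150c, Pdk1, Krt8 and Cubn. Krt8 was not among the genes left by the filter at 50, so 17 were run for it. Another 49 lost it under at least 1, and no difference changed sign. With the library labelled OA day 14 replicate 2 kept, which enters through the shared spread, 321 genes were called. In that fit 22 of the 63 lost their call, among them Syt1 (adjusted p = 0.352), Lamc1 (0.148), Cxcl12 (0.568), Epha1 (0.108), Cpa4 (0.0569), Col4a1 (0.377), Msx1 (0.402), Bmp4 (0.131), Hoxa13 (0.0627) and Hoxd13 (0.114).

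The paralogs Kdm2a and Kdm2b were examined first. Kdm2a (chromosome 19, 4314419 to 4398285) reached the ceiling of 18690 in each of the 3 OA libraries, against 791 and 783 in ODR libraries and 841 in the identical column. The difference in score was 4.57 ± 0.22 on the log2 scale (limma, adjusted p = 1.54e-09), and the ceiling leaves its true size unknown. OB libraries had 868 to 1034, near the ODR level. Kdm2b (chromosome 5, 122870665 to 122989823) was 202, 232 and 236 in OA and 230 and 278 in ODR, a difference of -0.18 ± 0.25 (adjusted p = 0.786), while OB libraries were at the ceiling. Pou5f1 was at the ceiling in every day 6 library, so its level cannot be compared. Of 54 other tested genes that start within 1 Mb of Kdm2a, 1 was called, against 5.21% of all tested genes.

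**Figure D2:**
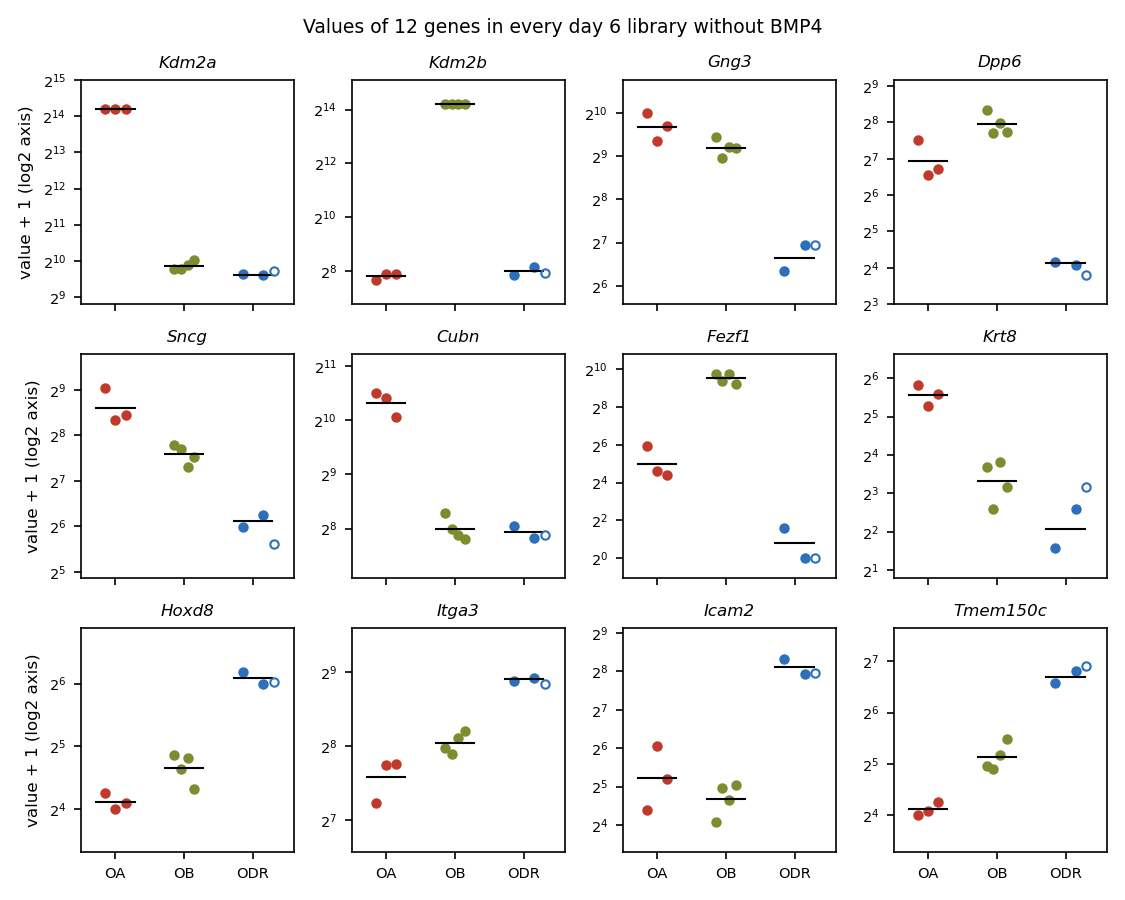
Values + 1 of 12 genes on a log2 axis in each day 6 library without BMP4, with OA at the left, OB in the middle and ODR at the right; bars are means of the log2 values and the open circle is the column identical to a BMP4 one, which is not in the mean. Kdm2a separates OA from the other groups, Kdm2b separates OB, and Cubn is high in OA at 1062 to 1449. Hoxd8 is low in OA at 15 to 18 and in OB at 19 to 28.

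Genes of neurons were among those higher in OA. Of 28 tested members of a list of neuronal cytoskeleton, synapse and secretion genes, 9 rose (all tested genes 2.98%) and 1 fell (2.23%), with a median of 0.71 against -0.01 over all tested genes. With the identical column kept, 11 rose (604 of all 12441 tested genes) and 1 fell (485). Gng3, which encodes a neuronal G protein gamma subunit, had 1016, 649 and 829 in OA libraries, against 80 and 122 in ODR libraries and 123 in the identical column. It was higher by 3.04 ± 0.31 (limma, adjusted p = 3.34e-05), and by 2.93 with the identical column kept. The groups were far apart at Gng3, and Bscl2, a gene that overlaps it, was also higher, with 824, 726 and 779 in OA and 314 and 285 in ODR, so that reads of the overlap cannot be assigned. Dpp6, an auxiliary subunit of Kv4 potassium channels, had 182, 92 and 105 in OA against 17 and 16 in ODR and rose by 2.80 ± 0.37 (adjusted p = 0.000299), or by 2.91 with the identical column kept. Tubb3, neuron-specific beta-tubulin, had 188, 88 and 118 in OA against 9 and 14 in ODR and rose by 3.36 ± 0.63 (adjusted p = 0.00461). Pcsk1n, a secretory granule protein whose gene overlaps Eras, had 134, 52 and 65 in OA against 8 and 12 in ODR and rose by 2.85 ± 0.50 (adjusted p = 0.00262). OA replicate 1 was the highest library for each of these 4 genes. The other members that rose were Stmn2, Uchl1, Syt4, Mapt and Scg2, by 0.71 to 1.48. Syt1, a calcium sensor of synaptic vesicles, went the other way, at 90, 114 and 87 in OA against 168 and 185 in ODR, a difference of -0.87 ± 0.12 (adjusted p = 0.000299). Without ODR replicate 1, Tubb3 was no longer called (adjusted p = 0.0586).

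Outside that list, Sncg, which encodes gamma-synuclein, had 522, 325 and 350 in OA against 62 and 75 in ODR and rose by 2.50 ± 0.23 (limma, adjusted p = 1.4e-05). Npy2r, a neuropeptide Y receptor, had 94, 43 and 43 in OA against 2 and 6 in ODR and rose by 3.63 ± 0.40 (adjusted p = 5.22e-05). Of 11 tested neural transcription factors, 2 rose (2.98% of all tested genes) and none fell (2.23%) by limma, and the median was -0.02, close to that of all tested genes. Fezf1, a forebrain zinc finger factor, had 60, 23 and 20 in OA against 2 and 0 in ODR and 0 in the identical column, a difference of 4.18 ± 0.52 (adjusted p = 0.000199) that depends on the 1 added before the log. Fezf1 and Npy2r passed the filter on low values through OA columns alone. Insm1, a zinc finger factor of neuroendocrine progenitors, had 145, 111 and 154 in OA against 24 and 42 in ODR and rose by 2.06 ± 0.49 (adjusted p = 0.0194). The Insm1 call was lost without OA replicate 1 (adjusted p = 0.0596), OA replicate 3 (0.0616), ODR replicate 1 (0.19) or ODR replicate 2 (0.0617). Sox1, a factor of neural progenitors, had 592, 339 and 407 in OA and 108 and 160 in ODR without passing the test (difference 1.72 ± 0.69, adjusted p = 0.182). With the identical column kept, 2 of the 11 rose (604 of all 12441 tested genes) and 1 fell (485).

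Homeobox genes of the HoxD cluster on chromosome 2, which pattern limbs and the trunk, had lower values in OA. All 8 tested HoxD genes had a difference below 0, 3 fell (2.23% of all tested genes) and none rose (2.98%), and the median was -1.55, against -0.01 over all tested genes. Hoxd8 had 18, 15 and 16 in OA libraries, against 72 and 63 in ODR libraries and 64 in the identical column. It fell by 1.98 on the log2 scale (SE 0.20, limma, adjusted p = 2.43e-05), or by 1.96 with the identical column kept. Its locus overlaps the antisense gene Hoxd3os1, and the sources used here do not give the strand used in counting. Hoxd13, a gene of distal limb and digit development, had 49, 64 and 37 in OA against 162 and 128 in ODR (difference -1.54 ± 0.34, adjusted p = 0.0133). Hoxd11 had 31, 24 and 23 in OA against 71 and 86 in ODR (difference -1.56 ± 0.44, adjusted p = 0.0491), but 34 in the identical column, and with that column kept it was not called (difference -1.17, adjusted p = 0.101). Hoxd13 lost its call without OA replicate 3 (adjusted p = 0.0543), ODR replicate 1 (0.121) or ODR replicate 2 (0.0657), and Hoxd11 lost it whichever of the 5 libraries was left out (0.0735 to 0.282). Hoxd12, Hoxd3 and Hoxd10 had differences of -2.21, -1.81 and -1.27 without passing the test, and Hoxd4 stood near level with 42, 46 and 37 in OA against 50 and 40 in ODR. The OA columns alone would not have brought Hoxd12, Hoxd9 or Hoxd3 through the filter on low values.

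**Figure D3:**
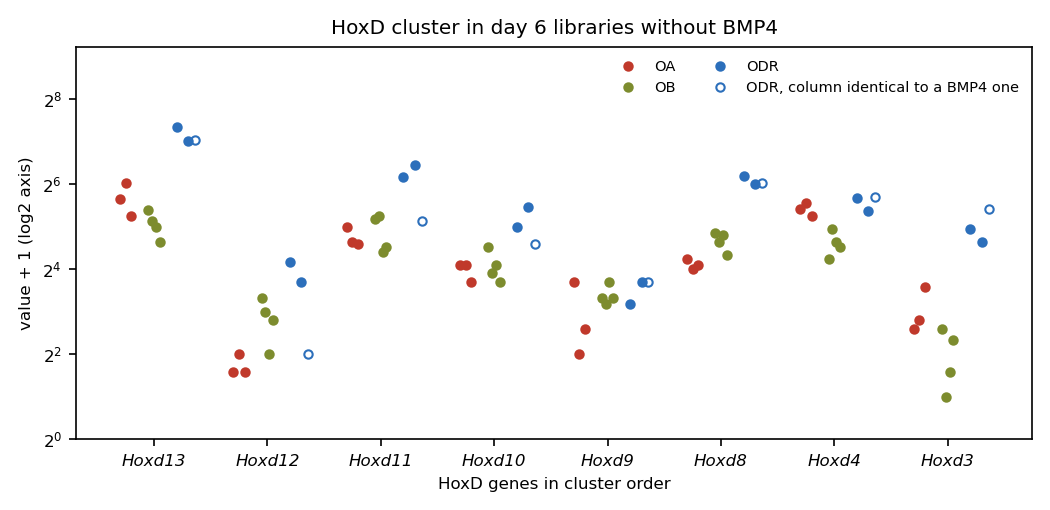
Values + 1 of the 8 tested HoxD genes, in their order along the cluster, on a log2 axis in each day 6 library without BMP4 (OA left, OB middle, ODR right; the open circle is the identical column). Every OA library lies below both tested ODR libraries at 6 of the 8 genes, and the groups overlap at Hoxd4 and Hoxd9.

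The other Hox clusters held 4 further calls. Of 22 tested HoxA, HoxB and HoxC genes, 4 fell (2.23% of all tested genes) and none rose (2.98%), and 2 had a difference above 0, with a median of -0.46. Hoxa13 had 2, 7 and 2 in OA against 35 and 19 in ODR (difference -2.69 ± 0.55, limma, adjusted p = 0.00806). It passed the filter on low values through ODR columns alone. Hoxa7 had 23, 23 and 19 in OA against 47 and 61 in ODR (difference -1.27 ± 0.28, adjusted p = 0.0111). Hoxa3 had 5, 8 and 13 in OA against 32 and 29 in ODR (difference -1.79 ± 0.39, adjusted p = 0.0111), and Hoxb5, the fourth, differed by -0.83. Hoxa7 and Hoxa3 overlap antisense or neighbouring Hox genes in the annotation. The call was lost without ODR replicate 1 for Hoxa13 (adjusted p = 0.101), without ODR replicate 2 for Hoxa7 (0.153), and without OA replicate 1 (0.0502), ODR replicate 1 (0.0854) or ODR replicate 2 (0.0817) for Hoxa3. With the identical column kept, 4 genes of these clusters and 3 HoxD genes were called lower (485 of all 12441 tested genes).

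Few pluripotency genes were expressed well enough to test. Of 24 listed, 7 were tested, 2 rose (2.98% of all tested genes) and none fell (2.23%), with a median of 0.94. L1td1, an RNA-binding protein of embryonic stem cells, had 92, 55 and 61 in OA against 7 and 12 in ODR and 2 in the identical column, and rose by 2.75 ± 0.38 (limma, adjusted p = 0.000441). The ODR columns alone would not have brought L1td1 through the filter on low values. Tfcp2l1, a transcription factor of naive pluripotency, had 470, 345 and 252 in OA against 63 and 57 in ODR and rose by 2.50 ± 0.43 (adjusted p = 0.00222). Both stayed far below the single mESC library, at 1205 and 6244. Nanog was 0 to 3 in OA and 0 to 1 in ODR, against 2802 in mESC, and Sox2 was 0 to 6 in OA and 1 to 2 in ODR, against 1508. Klf4, Klf5 and Tbx3 differed by 0.08 to 0.14 and were not called.

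Epithelial, trophoblast and endoderm genes held a few calls. Of 10 tested epithelial genes, 3 rose (2.98% of all tested genes) and none fell (2.23%), with a median of 0.83. The 3 that rose reached 10 in OA columns only, so the filter on low values partly set these counts and the median. With the identical column kept 4 rose, in a fit that called 604 of 12441 genes higher. Krt8, a keratin of simple epithelia, had 56, 38 and 47 in OA against 2 and 5 in ODR and 8 in the identical column, and rose by 3.48 ± 0.55 (limma, adjusted p = 0.00117), or by 3.12 with that column kept. Spint1, a membrane protease inhibitor, had 19, 21 and 26 in OA against 6 and 0 in ODR. Pkp3, a desmosomal plakophilin, had 14, 17 and 15 in OA against 3 and 2 in ODR. Calls were lost without ODR replicate 2 for Spint1 (adjusted p = 0.12) and Pkp3 (0.179), and without ODR replicate 1 for Pkp3 (0.0742). Cdh1, the epithelial cadherin, was at 0 in all 5 libraries, as were 5 others of the 26 listed epithelial genes. The summed level of that list was 771 to 906 in OA and 462 to 483 in ODR.

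Cubn (chromosome 2, 13276338 to 13491813), which encodes the endocytic receptor cubilin of visceral endoderm and kidney, had 1449, 1362 and 1062 in OA against 264 and 226 in ODR and 236 in the identical column. The groups stood more than 4-fold apart, a difference of 2.38 ± 0.21 (limma, adjusted p = 8.43e-06), and OB libraries were at the ODR level with 222 to 313. Of 11 tested endoderm genes, 2 rose (2.98% of all tested genes) and 1 fell (2.23%). Besides Cubn, Col4a1, a basement membrane collagen, rose, and Lamb1 fell. Gata6, a defining endoderm factor, had 24, 36 and 34 in OA and 14 and 24 in ODR without a call. Tfap2a, a factor of trophoblast and neural crest, had 120, 85 and 105 in OA against 52 and 36 in ODR and rose by 1.22 ± 0.27 (adjusted p = 0.0137). The call was lost without OA replicate 1 for Tfap2a (adjusted p = 0.0552) and Col4a1 (0.0591), without ODR replicate 1 for Col4a1 (0.16), and without ODR replicate 2 for Tfap2a (0.206). Lamb1 lost its call whichever of the 5 libraries was left out (0.0566 to 0.318).

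Des, which encodes the muscle intermediate filament desmin, had 2010, 1105 and 1592 in OA against 216 and 298 in ODR and 174 in the identical column, and rose by 2.58 ± 0.34 (limma, adjusted p = 0.000267). It carried the muscle marker list, whose sum was 1190 to 2140 in OA and 291 to 365 in ODR, and Myod1, Myog, Myf5 and Myf6 were at 0 in all 5 libraries. Of other large differences, Tekt2, a tektin of ciliary axonemes, had 148, 105 and 130 in OA against 24 and 19 in ODR (2.51 ± 0.29, adjusted p = 7.12e-05). Rtl1, an imprinted retrotransposon-derived gene, had 103, 100 and 88 in OA against 14 and 16 in ODR (2.61 ± 0.39, adjusted p = 0.000767). Epha1, an ephrin receptor whose gene overlaps Zyx, had 191, 108 and 208 in OA against 22 and 37 in ODR (2.47 ± 0.37, adjusted p = 0.000776). Slc5a9, a sodium-coupled sugar transporter, had 59, 44 and 53 in OA against 12 and 5 in ODR (2.58 ± 0.59, adjusted p = 0.0153), a call lost without ODR replicate 2 (adjusted p = 0.215).

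Marker lists of other cell types held few tested genes. Of 14 keratinocyte genes, 7 were at 0 in all 5 libraries, Krt5 and Krt14 among them, and the sum was 184 to 233 in OA and 198 to 199 in ODR. Of 10 adipocyte genes, 4 were at 0, Adipoq among them. The sums were 549 to 892 in OA and 756 to 1181 in ODR for 17 macrophage and leukocyte genes, and 652 to 753 in OA and 1066 to 1080 in ODR for 14 endothelial genes, of which Tie1 was at 0. The part of other cell types in the differences above was not tested.

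Some receptors and basement membrane components of cell adhesion were lower in OA. Of 24 tested integrins and laminins, 6 fell (2.23% of all tested genes) and 1 rose (2.98%), with a median of -0.17, and the counts were the same with the identical column kept. Itga3, a laminin-binding integrin subunit, had 150, 214 and 216 in OA against 470 and 484 in ODR and 457 in the identical column (difference -1.32 ± 0.17, limma, adjusted p = 0.000267). Itga6, another laminin-binding subunit, had 326, 354 and 388 in OA against 616 and 596 in ODR (difference -0.77 ± 0.12, adjusted p = 0.00101). Lamc1, the laminin gamma 1 chain, had 1694, 1718 and 1693 in OA against 2536 and 3012 in ODR (difference -0.70 ± 0.11, adjusted p = 0.00103). Itgb1, the common beta 1 subunit, had 9296, 9296 and 9294 in OA and was at the ceiling in both ODR libraries, a difference of -1.01. That is a step between the highest scores, and the true fold is not known. Itga9 and Itga11 fell by 1.33 and 1.64. Itgb4, the beta 4 subunit of hemidesmosomes, rose instead, with 214, 190 and 238 in OA against 88 and 89 in ODR (1.26 ± 0.30, adjusted p = 0.0183). The Itgb4 call was lost without OA replicate 1 (adjusted p = 0.0502), OA replicate 3 (0.0615), ODR replicate 1 (0.105) or ODR replicate 2 (0.127).

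Fibroblast genes gave calls in both directions. Of 39 tested members, 2 rose (S100a4 and Fbn1) and 2 fell (Col5a2 and Postn), with a median of -0.14. Of all tested genes 2.98% rose and 2.23% fell, so these counts are near the background. With the identical column kept, 2 members rose (604 of all 12441 tested genes) and 3 fell (485). The summed level was 97453 to 102257 in OA and 96548 to 109241 in ODR. S100a4, a calcium-binding protein, had 278, 272 and 298 in OA against 136 and 124 in ODR (1.12 ± 0.26, limma, adjusted p = 0.0162). Postn, a matricellular protein, had 9314, 7101 and 6251 in OA against the ceiling in both ODR libraries, but 6251 in the identical column, and with that column kept it was not called (difference -0.80, adjusted p = 0.27). Each of the 4 calls was lost without ODR replicate 1, with adjusted p-values of 0.0765 for S100a4, 0.167 for Fbn1, 0.109 for Col5a2 and 0.184 for Postn. S100a4 was also lost without OA replicate 3 (0.0515) or ODR replicate 2 (0.148), Fbn1 without OA replicate 1 (0.0708) or ODR replicate 2 (0.0577), and Postn whichever library was left out (0.0599 to 0.225). Anxa2, a membrane-binding annexin outside that list, reached the ceiling in each OA library, against 5620 in both ODR libraries and 5083 in the identical column. The difference in score was 1.73 ± 0.14 (limma, adjusted p = 4.2e-06). High values fall on shared steps. The OA and the ODR libraries tested did not vary among themselves at Anxa2, so this SE rests on other libraries and genes.

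Among signalling genes, ligands and targets of BMP and Wnt gave single calls. Of 21 tested BMP pathway targets, 1 rose (Runx2) and 2 fell (Bmp4 and Msx1), with a median of -0.40, while 2.98% of all tested genes rose and 2.23% fell. With the identical column kept, 2 rose (604 of all 12441 tested genes) and 3 fell (485). Msx1, a homeobox gene induced by BMP, had 22, 20 and 5 in OA against 54 and 49 in ODR (difference -1.88 ± 0.50, limma, adjusted p = 0.0348). The ligand gene Bmp4 had 12, 14 and 5 in OA against 18 and 34 in ODR (difference -1.29 ± 0.34, adjusted p = 0.0317). Id1 had 59, 28 and 22 in OA against 39 and 50 in ODR and was not called. Msx1 and Bmp4 were no longer called without OA replicate 3 (adjusted p = 0.122 and 0.117) or ODR replicate 2 (0.174 and 0.4), Msx1 also without ODR replicate 1 (0.171), and Runx2 without OA replicate 1 (0.109) or ODR replicate 1 (0.306). Wnt5a, a non-canonical Wnt ligand, had 430, 426 and 354 in OA against 646 and 753 in ODR and fell by 0.79 on the log2 scale (SE 0.13, adjusted p = 0.00148). Wnt11, another ligand of that class, had 39, 22 and 19 in OA against 6 and 9 in ODR and rose by 1.66 ± 0.35 (adjusted p = 0.00976), a call lost without ODR replicate 1 (0.111). Socs2, an inhibitor of cytokine receptor signalling, had 13, 25 and 9 in OA against 78 and 61 in ODR (difference -2.19 ± 0.45, adjusted p = 0.00835), and lost its call without ODR replicate 1 (0.0814) or ODR replicate 2 (0.0548).

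Interferon response and secreted inflammatory genes held single calls. Of 28 tested interferon response genes, 2 fell (2.23% of all tested genes) and none rose (2.98%), with 7 above 0 and a median of -0.42. Ifitm3, a membrane protein that restricts viral entry, had 314, 301 and 426 in OA against 779 and 1138 in ODR (difference -1.46 ± 0.28, limma, adjusted p = 0.00606). Rtp4, an interferon-induced chaperone, had 44, 22 and 28 in OA against 100 and 129 in ODR and 57 in the identical column (difference -1.88 ± 0.41, adjusted p = 0.0115). ODR replicate 2 was the highest library for both, and without it neither was called (adjusted p = 0.12 and 0.136), nor was Rtp4 without ODR replicate 1 (0.0505). Of 18 tested secretory genes of senescence, 2 fell, Cxcl12 and Ccl7 (2.23% of all tested genes), and none rose. The chemokine Cxcl12 had 224, 181 and 162 in OA against 356 and 388 in ODR (difference -0.98 ± 0.21, adjusted p = 0.0107), a call lost without ODR replicate 1 (0.0549) or ODR replicate 2 (0.117). Ccl7 lost its call without ODR replicate 1 (0.0795).

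Chromatin regulators other than Kdm2a gave 4 calls. None of 10 tested PRC1.1 subunits was called by limma, with or without the identical column, and the median was -0.09. An unadjusted p below 0.05 was reached by 1 of them, and by 2281 of all 12441 tested genes. In this list the largest difference was that of Bcorl1 at 0.46, and Bcor, a core scaffold, had 226, 199 and 197 in OA against 218 and 206 in ODR. The list titled PRC2 and canonical PRC1 also holds variant PRC1 subunits such as Pcgf5. Of its 27 tested genes, 2 fell (2.23% of all tested genes) and none rose, and 4 fell with the identical column kept (485 of all 12441). Phf19, a PRC2 accessory protein, had 18, 30 and 16 in OA against 67 and 68 in ODR (difference -1.67 ± 0.42, adjusted p = 0.0257), and Pcgf5, a variant PRC1 subunit, had 8, 12 and 13 in OA against 29 and 24 in ODR (difference -1.22 ± 0.33, adjusted p = 0.0362). Of 19 tested lysine demethylases other than Kdm2a and Kdm2b, 2 rose (2.98% of all tested genes). With the identical column kept, 2 of the 19 rose (604 of all 12441) and 1 fell (485). The 2 called higher in the main comparison were Kdm6a, the X-linked H3K27 demethylase, with 510, 603 and 514 in OA against 372 and 398 in ODR (0.49 ± 0.10, adjusted p = 0.00984), and Kdm7a (0.65 ± 0.16, adjusted p = 0.0253). Pcgf5 lost its call whichever of the 5 libraries was left out (0.0515 to 0.209). Without ODR replicate 1 the adjusted p was 0.127 for Phf19, 0.0942 for Kdm6a and 0.155 for Kdm7a, and without ODR replicate 2 it was 0.166, 0.0552 and 0.129. Phf19 was also lost without OA replicate 1 (0.0814) or OA replicate 3 (0.0939), and Kdm7a without OA replicate 2 (0.0833) or OA replicate 3 (0.0538).

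Large decreases were also seen in surface proteins, enzymes and mesenchymal factors. Icam2, an adhesion molecule, had 20, 66 and 36 in OA against 320 and 242 in ODR and 246 in the identical column (difference -2.90 ± 0.51, limma, adjusted p = 0.00248). It was the 1 of 8 tested endothelial genes that fell (2.23% of all tested genes). Tmem150c, a transmembrane protein, had 15, 16 and 18 in OA against 95 and 112 in ODR (difference -2.59 ± 0.44, adjusted p = 0.00204). B3galt5, a galactosyltransferase, had 9, 18 and 17 in OA against 65 and 78 in ODR (difference -2.26 ± 0.39, adjusted p = 0.00216). Alx4, a homeobox factor of craniofacial and limb mesenchyme, had 14, 39 and 20 in OA against 116 and 104 in ODR (difference -2.25 ± 0.40, adjusted p = 0.00279). Pdk1, a kinase that inhibits pyruvate dehydrogenase, had 16, 19 and 14 in OA against 62 and 74 in ODR (difference -1.998 ± 0.28, adjusted p = 0.000481), while the glycolytic enzyme gene Pfkp rose by 0.83 ± 0.17 (adjusted p = 0.00766). Other decreases that met the naming rule, which asks for groups that do not overlap and a higher group mean of at least 50 and leaves some larger decreases unnamed, were in Ncald, a neuronal calcium sensor (-2.24), Atp6v0d2, a subunit of the vacuolar proton pump (-2.23), Cpa4, a carboxypeptidase (-2.003), Cadm3, a cell adhesion molecule (-1.86), and Mecom, a zinc finger transcription factor (-1.79), with adjusted p-values from 0.00072 to 0.0253. Calls were lost without ODR replicate 1 for Pfkp (adjusted p = 0.092), Mecom (0.0549) and Atp6v0d2 (0.127), without ODR replicate 2 for Cadm3 (0.0577), Mecom (0.09) and Atp6v0d2 (0.163), and for Atp6v0d2 without OA replicate 1 (0.0626) or OA replicate 3 (0.0834).

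**Figure D4:**
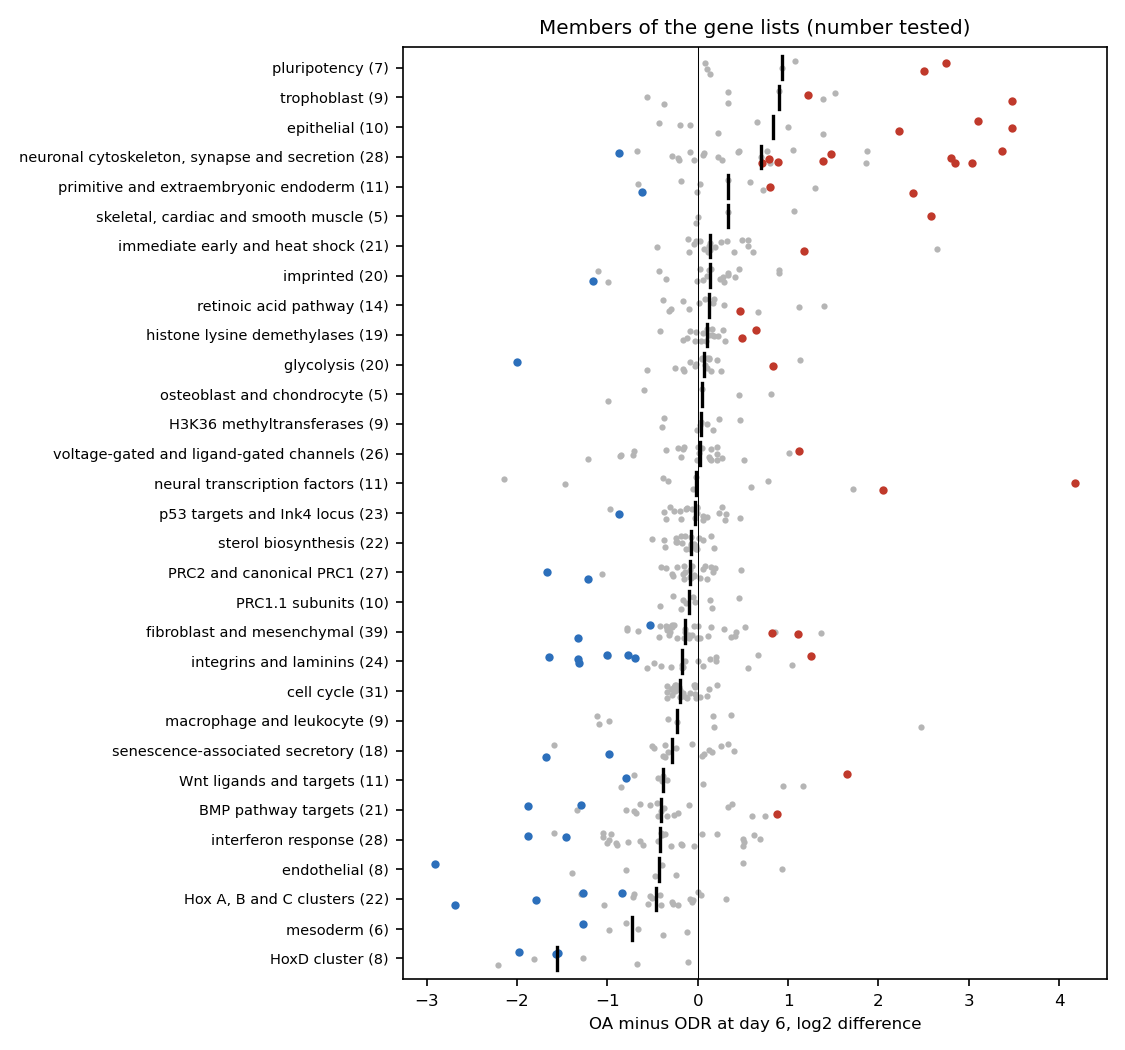
Difference of OA minus ODR at day 6 (horizontal axis, log2) for each tested member of the lists with at least 5 tested genes, ordered by median (black bars); red and blue points are called higher and lower in OA and grey points are not called. The HoxD list has the lowest median at -1.55 and the pluripotency list the highest at 0.94.

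Several lists held no calls or 1 call. None of 31 tested cell cycle genes, 22 sterol biosynthesis genes or 9 H3K36 methyltransferase genes was called by limma. Of 23 tested p53 target and Ink4 locus genes, 1 fell, Ccng1 (2.23% of all tested genes). An unadjusted p below 0.05 was reached by 0 of the cell cycle genes, 1 of the sterol genes and 2 of the H3K36 methyltransferase genes. Among all 12441 tested genes, 2281 reached it. With the identical column kept, 1 H3K36 methyltransferase gene was called higher (604 of all tested genes). The cell cycle list had 4 members above 0 and a median of -0.20. Of 20 tested imprinted genes, 1 fell, Mest, a maternally imprinted hydrolase gene. Of 21 tested immediate early and heat shock genes, 1 rose, Nr4a1, and of 6 tested mesoderm genes, 1 fell, Hand2. Of all tested genes 2.98% rose and 2.23% fell.

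The question of which differences also separate OA from OB was tested in the same fit, in which OA serves both comparisons. Of 12441 genes, 1524 (12.2%) differed between OA and OB at day 6, 796 (6.4%) higher in OA and 728 (5.85%) lower. Without OA replicate 2 the count was 877. Cubn had 1062 to 1449 in OA against 222 to 313 in OB, a difference of 2.33 ± 0.18 (limma, adjusted p = 3.24e-07). Krt8 was higher in OA than in OB by 2.25 ± 0.46 (adjusted p = 0.00359), Epha1 by 1.51 ± 0.31 (adjusted p = 0.00372) and Sncg by 1.03 ± 0.19 (adjusted p = 0.00204). Anxa2 had 3999 to 5083 in OB, below the OA ceiling. Hoxd8 differed between OA and OB by -0.55 ± 0.16 (adjusted p = 0.0365), and Itga3, Itga6 and Lamc1 differed by -0.72 to -0.46, all lower in OA. Of 8 tested HoxD genes, 1 was lower in OA than in OB (5.85% of all tested genes) and none was higher (6.4%). Hoxd8, Hoxd13 and Hoxd11, called lower in OA than in ODR, were also lower in OB than in ODR. The differences of OB minus ODR were -1.44, -2.14 and -1.47 (limma, adjusted p = 5.64e-05, 0.000252 and 0.0234). In the list of neuronal cytoskeleton, synapse and secretion genes, 8 of 28 tested members were lower in OA than in OB (5.85% of all tested genes) and 2 were higher (6.4%). Some genes that were higher in OA than in ODR were lower in OA than in OB. Dpp6 was lower in OA than in OB by 1.02 on the log2 scale (SE 0.31, limma, adjusted p = 0.0397). Fezf1 had 20 to 60 in OA against 583 to 846 in OB (difference -4.54 ± 0.43, adjusted p = 3.97e-06), Pcsk1n 52 to 134 against 452 to 1026 (difference -3.17 ± 0.42, adjusted p = 9.06e-05), and Insm1 111 to 154 against 492 to 654 (difference -2.08 ± 0.41, adjusted p = 0.00298). Gng3 differed from OB by 0.48 ± 0.26 (adjusted p = 0.273) and Icam2 by 0.54 ± 0.42 (adjusted p = 0.472). Tubb3, Npy2r, Des, L1td1 and Tfcp2l1 differed from OB by -0.62 to -0.16 and were not called (limma, adjusted p = 0.385 to 0.81). The lack of a call does not show that OA and OB are alike at these genes.

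The libraries of days 1 and 14, which are separate from those of day 6, were then examined for the day 6 calls. At day 1, 28 genes (0.225%) differed between OA and ODR by limma, 14 in each direction (0.113%). At day 14, without the library labelled OA replicate 2, 724 (5.82%) differed, 411 (3.3%) higher and 313 (2.52%) lower. Of the 371 genes called higher at day 6, 290 (78.2%) were higher in OA at day 1, against 48.6% of all tested genes, and 355 (95.7%) at day 14, against 49.5%. Of the 277 genes called lower, 224 (80.9%) were lower in OA at day 1, against 51.3% of all tested genes, and 252 (91.0%) at day 14, against 50.4%. Their median differences were 0.20 at day 1 and 0.65 at day 14 for the genes called higher, and -0.26 and -0.57 for those called lower, against 1.06 and -0.94 at day 6, where the genes were chosen.

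**Figure D5:**
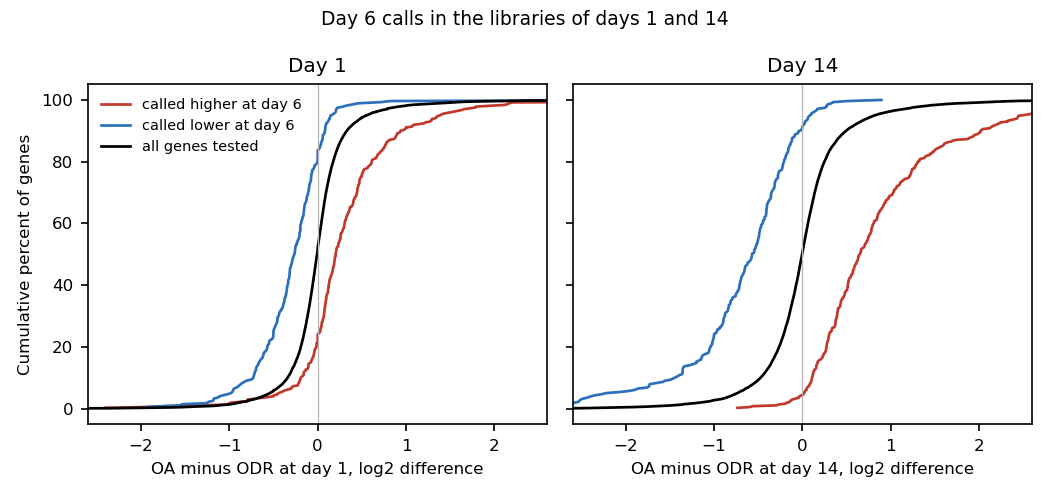
Cumulative percent of genes (vertical axis) by difference of OA minus ODR (horizontal axis, log2) at day 1 and day 14, for genes called higher (red) or lower (blue) at day 6 and all 12441 tested genes (black). The medians of the red and blue genes are 0.20 and -0.26 at day 1 and 0.65 and -0.57 at day 14.

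Some differences were present at day 1. Gng3 had 156 and 110 in OA against 5 and 8 in ODR at day 1 (4.17 ± 0.34, limma, adjusted p = 2.92e-06). Hoxd8 had 13 and 15 in OA against 60 and 57 in ODR (difference -1.99 ± 0.21, adjusted p = 0.000125). Cubn had 1407 and 1062 in OA against 376 and 496 in ODR (1.50 ± 0.23, adjusted p = 0.0078), and Itga3 had 104 and 116 in OA against 282 and 224 in ODR (difference -1.19 ± 0.19, adjusted p = 0.00946). Hoxd8 differed by the same amount at both days, to within 0.01 ± 0.29. Hoxd13 had 77 and 63 in OA against 94 and 68 in ODR at day 1, and Fezf1 was listed at 0 in all 4 libraries of that day. At day 14, Gng3 was higher by 1.44 ± 0.31 (adjusted p = 0.0101), Cubn by 2.02 ± 0.21 (adjusted p = 5.19e-05) and Krt8 by 4.15 ± 0.55 (adjusted p = 0.000339), while Hoxd8 differed by -0.69 ± 0.20 (adjusted p = 0.0447).

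Whether the difference at day 6 was itself unlike that at day 1 was tested as an interaction, which called 13 genes (0.104%), 9 (0.0723%) with a larger difference of OA minus ODR at day 6 and 4 (0.0322%) with a smaller one. An unadjusted p below 0.05 was reached by 1033. Npy2r, listed at 0 in both OA libraries of day 1 and 2 and 1 in ODR, had a difference larger by 4.93 ± 0.59 at day 6 (limma, adjusted p = 0.000957), or by 5.76 with 0.5 added before the log and 3.17 with 5 added. Anxa2 was 9306 in all 4 libraries of day 1, and its difference in score at day 6 was larger by 1.73 ± 0.21 (adjusted p = 0.000957). Anxa2 did not vary within any of these groups, so that SE rests on other libraries and genes. Mest had 428 and 452 in OA against 336 and 304 in ODR at day 1, and 1230, 990 and 981 in OA against 2412 and 2347 in ODR at day 6, an interaction of -1.62 ± 0.22 (adjusted p = 0.00212, or 0.56 with the library labelled OA day 14 replicate 2 kept). Tmem71 had 69 and 39 in OA against 0 and 0 in ODR at day 1, and 105, 59 and 57 in OA against 51 and 34 in ODR at day 6, an interaction of -4.98 ± 0.53 (adjusted p = 0.000481). Its size depends on the 1 added before the log and ran from -5.96 with 0.5 added to -2.81 with 5 added. Usp53, a member of the ubiquitin-specific protease family, had an interaction of 1.18 ± 0.20 (adjusted p = 0.0203), and Igtp, an interferon-induced GTPase, of -2.24 ± 0.40 (adjusted p = 0.0323). The Usp53 call was lost without OA replicate 1 (adjusted p = 0.0622) or ODR replicate 2 (0.132) of day 6, without either OA library of day 1 (0.054 and 0.0739) and without ODR replicate 1 of day 1 (0.107). Igtp lost its call without OA replicate 1 (0.0622), OA replicate 2 (0.0672), OA replicate 3 (0.0526) or ODR replicate 2 (0.142) of day 6, without either OA library of day 1 (0.0615 and 0.093), without ODR replicate 2 of day 1 (0.147) and with the identical column kept (0.0864). Without OA replicate 1 the interaction called 8 genes, and without ODR replicate 1 it called 32.

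The day 6 calls were also set beside the levels in the single mESC and single MEF library. Of the 371 genes called higher in OA, 102 (27.5%) were at least 2-fold higher in mESC than in MEF, against 21.6% of all tested genes, and 122 (32.9%) at least 2-fold higher in MEF, against 27.3%. Of the 277 called lower, 29 (10.5%) were at least 2-fold higher in mESC and 160 (57.8%) at least 2-fold higher in MEF. With 1 library of each cell type these shares describe those libraries. Alx4, Mecom and Hoxd8 had 175, 234 and 136 in MEF and 0, 6 and 4 in mESC, while Itga6 was higher in mESC, with 1078 against 544 in MEF.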

How the data were processed

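Poly-A selected RNA of mouse cells was sequenced with a VAHTS kit, per the labels' protocols. The authors deposited 1 normalized tag count score per gene and library. Per the submitters' processing notes, bcl2fastq, Bowtie2 2.2.5, RSEM and mm10 were used. The normalization and the strand used in counting are not given in the sources used here. Scores are whole numbers but not read counts: column totals lie between 4255921 and 4398785, high values fall on shared steps, and 18690 is a ceiling. Depth is therefore unknown, and no counting interval is given. The ceiling is held by 9 or 10 genes in every column, so a gene can leave it when another enters. Differences that involve the ceiling are differences of score and not measured folds.

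Values were transformed as log2(value + 1), and 1 mean per group was fitted with limma 3.58.1 (R 4.3.3, empirical Bayes without trend) to 26 libraries in 11 groups, with 15 residual degrees of freedom; ODR with BMP4 was left with 1 library, which adds nothing to the spread. Tests were two-sided with Benjamini-Hochberg adjustment over all 12441 genes. Because the labels do not say whether replicates are separate cultures, the p-values reflect variation among libraries, possibly technical. The script was tested on simulated data. Errors after ± are SE of the fit.

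The genes named are Pou5f1, Kdm2a, Kdm2b, Dpp6, Gng3 and Hoxd8, the 14 largest non-overlapping calls in each direction with a higher group mean of at least 50, up to 3 members in each direction of each list with at least 2 calls, and up to 5 interaction calls in each direction with that mean. Predicted genes and clone identifiers were passed over. Other list members named in the text were chosen after their values were seen. The members and all 34 lists were chosen with earlier results of these data known. Positions are from GENCODE vM21 (GRCm38). Some results are not reported here.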

Additional observations from a re-analysis of the deposited data

Results flagged for a closer look

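In 6 of the 70 named genes, 1 of the 4 OB libraries of day 6 stood apart from the other 3 by Dixon's criterion, which flags about 1 group in 20 by chance. The library that stood apart had 126 for L1td1 (others 62 to 65), 17 for Spint1 (24 to 25), 20 for Hoxa3 (10 to 11), 306 for Tfap2a (228 to 238), 3320 for Lamc1 (2620 to 2722) and 3999 for Anxa2 (5083).

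Of the 13 genes whose difference of OA minus ODR at day 6 differed from that at day 1 by the limma interaction test, 6 met the naming rule for that test. It was larger at day 6 by 4.93 for Npy2r, 1.73 for Anxa2 and 1.18 for Usp53 on the log2 scale. It was -4.98 for Tmem71, -2.24 for Igtp and -1.62 for Mest.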

How the results depend on the processing

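For OA against ODR at day 6, the 648 calls became 1089 with the identical column kept, 173 with only the 5 libraries in the fit, 321 with the library labelled OA day 14 replicate 2 kept, and 184 to 557 with 1 OA or ODR library left out. The other alternatives gave 571 to 793. The interaction's 13 calls became 31 with the identical column, 8 with OA day 14 replicate 2, 34 without a filter on low values, 20 with a filter at 50, and 8 to 32 with 1 library left out. For OA against OB, 1524 calls became 921 with OA day 14 replicate 2 kept and 877 to 1502 with 1 library left out. Leaving out single OB and day 1 libraries was added after seeing the data. The labels give the groups the same replicate numbers. For OA and ODR at day 6, with the identical column as ODR replicate 3, deviations of same-numbered libraries from their group means correlated at -0.08, -0.07 and 0.12. For libraries with other numbers the correlations ran from -0.11 to 0.18. Deviations from a mean of 3 libraries are tied to each other, so these values cannot decide whether the numbers pair the libraries. OB was not checked. With the replicate number as a block, 690 genes were called for OA against ODR, 37 for the interaction and 1752 for OA against OB. With the block and the identical column these were 1425, 85 and 1872. The cause of these shifts was not tested. Of 63 named calls, 61 held with the identical column, 57 with the block, 41 with OA day 14 replicate 2 kept, 28 without each single library and 23 with only the 5 libraries.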
